A study of Mus musculus with 6 samples.

Results

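The mitotic machinery of the injured Achilles tendon was followed through 44 genes that act from mitotic entry to the final separation of daughter cells. They were taken from a list of G2/M, spindle, kinetochore, kinesin and condensin genes and matched by symbol. The list was drawn up with earlier results of these data known, so the counts given here describe the list and are not independent evidence of its direction. All 44 were found among the 18099 genes of the expression table, and all 44 passed the filter on low reads that left 14261 genes for testing. RNA was sequenced from whole tendon of neonatal mice about a week after the tendon had been cut across under pentobarbital in each leg. The control group was 3 *Ampkα1fl/fl* littermates, which carry floxed *Ampkα1* alleles and no Cre. The other group was 3 *LysM-Cre; Ampkα1fl/fl* mice, in which Cre from the lysozyme M locus, active in macrophages, neutrophils and other myeloid cells, removes AMPKα1, a catalytic subunit of the energy-sensing AMP-activated protein kinase. Cells outside the myeloid lineage keep AMPKα1 in both groups, and the RNA is that of the whole tissue and not of myeloid cells alone. Sex and strain of these mice are not given in the sources used here.

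Cells that divide switch on a shared set of genes late in the cell cycle. Cyclin B with Cdk1 starts mitosis, condensin and topoisomerase II fold and disentangle the chromosomes, motor proteins of the kinesin family build the spindle with Aurora and Polo kinases, and the anaphase-promoting complex (APC/C) ends mitosis by destroying cyclin B and securin. In a neonatal tendon that is being repaired, fibroblasts, progenitors, endothelial cells and leukocytes may all divide, and the messenger RNAs of these genes are known to be abundant only in cycling cells.

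Many late cell cycle promoters are known to carry a CHR element (cell cycle genes homology region), bound by the MuvB complex with its partners B-Myb, FOXM1 and the DREAM repressors, often near CCAAT boxes bound by NF-Y. RefSeq promoters of the GRCm38.p6 build were matched by gene identifier for 37 of the 44 genes (39 promoters). The 250 bases before each transcription start were searched on both strands for TTTGAA or TTCGAA as the CHR and for CCAAT as the NF-Y box, motifs that share no overlapping match. A CHR match was present in 18 of the 39 promoters (46.2%), against 17.1% of all 32851 promoters in the table. A CCAAT match was present in 30 (76.9%, against 33.8%), and both were present in 16 (41.0%, against 6.02%). A CCAAT box followed by a CHR with 15 to 40 bases between their first letters, a spacing chosen after the sequences had been seen, was present in 10 (25.6%, against 0.971%). Those 10 belong to *Cdc20*, *Cdk1*, *Espl1*, *Kif11*, *Kif22*, *Mki67*, *Ncapd2*, *Prc1*, *Top2a* and *Ube2c*. A match is a description of letters and not a bound site.

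The promoter stretches printed here were picked for holding both motifs, so that these genes share them was fixed by the choice. Other members lack the pair, and *Kif20b* and *Ncaph*, for example, hold neither motif in the searched bases. The printed stretches belong to a chromokinesin, a cyclin, a checkpoint kinase-like protein and the Ki-67 protein. Stretches of topoisomerase II and the APC/C activator were added after their values were seen. Each printed stretch runs 5′ to 3′ in the direction of the gene and ends before the first annotated exonic base. The CHR and CCAAT matches of either strand are in capitals.
*Kif22* promoter, chr7:127042472-127042670, minus strand: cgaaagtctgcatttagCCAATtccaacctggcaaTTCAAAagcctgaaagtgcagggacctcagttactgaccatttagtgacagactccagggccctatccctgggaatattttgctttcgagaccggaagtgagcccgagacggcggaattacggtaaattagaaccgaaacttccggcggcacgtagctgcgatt
*Ccnb2* promoter, chr9:70421555-70421804, minus strand: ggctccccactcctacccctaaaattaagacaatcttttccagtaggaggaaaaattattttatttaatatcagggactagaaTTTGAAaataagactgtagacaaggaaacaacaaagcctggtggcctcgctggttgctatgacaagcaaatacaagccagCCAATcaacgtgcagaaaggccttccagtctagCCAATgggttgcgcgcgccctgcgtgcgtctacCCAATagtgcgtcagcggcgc
*Bub1b* promoter, chr2:118597961-118598201, plus strand: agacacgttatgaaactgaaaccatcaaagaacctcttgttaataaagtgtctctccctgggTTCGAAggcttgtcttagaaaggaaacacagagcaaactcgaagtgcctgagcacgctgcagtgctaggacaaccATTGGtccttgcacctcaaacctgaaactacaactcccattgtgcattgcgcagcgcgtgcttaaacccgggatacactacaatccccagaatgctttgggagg
*Mki67* promoter, chr7:135716451-135716629, minus strand: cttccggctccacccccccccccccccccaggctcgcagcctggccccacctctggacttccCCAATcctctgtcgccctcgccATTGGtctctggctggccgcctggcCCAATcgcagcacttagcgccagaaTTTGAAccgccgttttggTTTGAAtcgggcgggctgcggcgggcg
*Top2a* promoter, chr11:99024200-99024439, minus strand: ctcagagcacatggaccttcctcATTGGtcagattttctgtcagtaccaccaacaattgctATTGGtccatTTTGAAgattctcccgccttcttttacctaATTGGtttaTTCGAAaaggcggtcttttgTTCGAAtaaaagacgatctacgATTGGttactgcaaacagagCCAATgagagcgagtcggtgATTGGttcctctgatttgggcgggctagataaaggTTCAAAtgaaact
*Cdc20* promoter, chr4:118437353-118437593, minus strand: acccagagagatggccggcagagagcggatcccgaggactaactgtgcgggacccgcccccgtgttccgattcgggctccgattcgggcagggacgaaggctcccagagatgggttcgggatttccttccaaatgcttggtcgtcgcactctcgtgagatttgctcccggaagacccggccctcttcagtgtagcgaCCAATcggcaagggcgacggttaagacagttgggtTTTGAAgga
In the printed stretches of *Kif22* and *Cdc20* a single CCAAT box lies just before a single CHR. The whole searched promoter of *Kif22* holds 2 CHR matches (at −215 and −17 from the transcription start) and 2 CCAAT matches (−233 and −54). That of *Cdc20* holds 1 CHR match (−18) and 2 CCAAT matches (−53 and −8). The *Kif22* matches at −54 and −17 and the *Cdc20* match at −8 are not in the printed stretches, which end before the exon. In *Mki67* a pair of CHR matches follows 3 CCAAT boxes, and in *Top2a* 4 CHR and 6 CCAAT matches are spread over the whole stretch, whereas in *Ccnb2* and *Bub1b* the CHR lies before the CCAAT boxes.

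The libraries held 18076805 to 19479887 reads assigned to genes. The targeted gene, *Prkaa1* (AMPKα1), was counted at 740, 688 and 690 reads in control tendon and 626, 751 and 652 in the *LysM-Cre; Ampkα1fl/fl* libraries (log2 fold change −0.08, SE 0.09, adjusted p = 0.744), so whole-tissue RNA did not show the deletion at the level of the gene. *Lyz2*, the lysozyme M gene that carries the Cre, had 7378, 7778 and 7372 reads in controls and 9, 15 and 8 in the other group (adjusted p = 3.41e-06), which matches the genotype labels of all 6 libraries. The groups thus differed in *Lyz2* RNA (0.142% of control) and in the presence of Cre, besides the intended loss of AMPKα1. With this design these cannot be told apart.

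All 44 mitotic genes had a lower mean in *LysM-Cre; Ampkα1fl/fl* tendon than in control tendon, where 50.6% of all tested genes did. Their summed level was 1625, 1698 and 1355 CPM (a read number relative to library size, scaled by TMM factors) in the control libraries and 870.4, 1224 and 1075 in the *LysM-Cre; Ampkα1fl/fl* libraries, or 67.8% of the control mean, with an SD of 181 among controls and 178 in the other group (n = 3 each). The groups did not overlap in this sum, and the distance between the lowest control and the highest *LysM-Cre; Ampkα1fl/fl* library was smaller than the range within either group. The median log2 fold change of the 44 genes was −0.57, which is 67.1% of control, beside a median of −0.002 over all tested genes. In bulk RNA, fewer dividing cells and less mitotic RNA per dividing cell cannot be told apart.

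Not a single member passed an adjusted p of 0.05 in edgeR's quasi-likelihood test with Benjamini-Hochberg adjustment over all 14261 genes (0 of 44), a threshold that 0.568% of all tested genes passed in the lower direction. The adjusted p of the members ran from 0.0512 (*Kif20a*) to 0.394 (*Ncapg*). At an unadjusted p under 0.05, 43 of the 44 were lower, against 8.55% of all tested genes, and 0 were higher, against 5.97%. A fit blocked on replicate number again gave 43, against 8.31%, and again 0 passed the adjusted threshold. DESeq2 passed 27 of the 44 at an adjusted p under 0.05, against 2.67% of the genes it tested as lower. The DESeq2 counts of the subgroups below are to be set beside that share. Leaving out replicate 2 of the *LysM-Cre; Ampkα1fl/fl* group, its highest library for most members, let 5 members pass in edgeR, namely *Ccnb1*, *Kif11*, *Ncapd2*, *Ncaph* and *Anln*, while leaving out any other library let 0 pass. The p-values measure the spread between these mice, and with 3 against 3 an exact two-sided permutation test cannot go below 0.1.

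**Figure D1:**
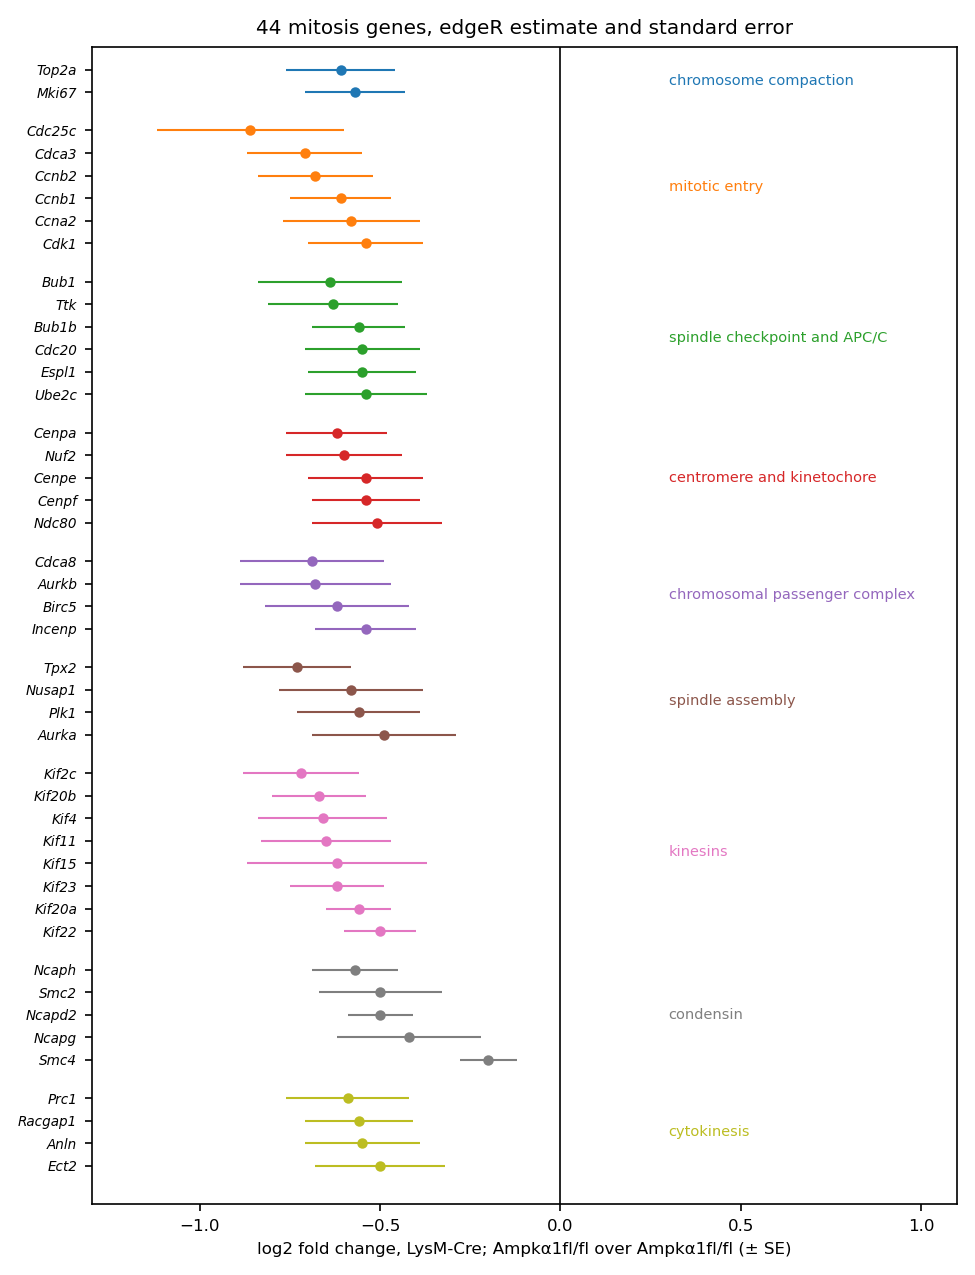
Log2 fold change of each of the 44 genes (*LysM-Cre; Ampkα1fl/fl* over *Ampkα1fl/fl*, x axis) with its standard error as a bar, grouped by role. All 44 points lie left of 0, 41 of them between −0.75 and −0.45, with *Cdc25c* the lowest at −0.86 and *Smc4* the nearest to 0 at −0.20.

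The log2 fold changes of 41 members lay between −0.75 and −0.45, with standard errors of 0.09 to 0.25. These errors hold the spread between libraries that members share, so they are not the error of a difference between 2 members, which was tested for none. The values of the groups did not overlap in 39 members, against 11.4% of all tested genes, and these 39 reached the smallest exact permutation p of 0.1. The exceptions were *Ndc80*, *Nusap1*, *Kif15*, *Smc2* and *Ncapg*, in each of which the highest *LysM-Cre; Ampkα1fl/fl* library exceeded the lowest control.

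Some libraries held the same place in most members. Control replicate 3 was the lowest control for all 44 members, and the highest of the 6 libraries was control replicate 2 for 32 members and control replicate 1 for 12. In the *LysM-Cre; Ampkα1fl/fl* group, replicate 1 was the lowest of all 6 libraries for 43 members, and the highest of that group was replicate 2 for 36 members and replicate 3 for 8. The members were lower in all 132 of 132 comparisons of same-numbered libraries, where 19.5% of all tested genes were lower in all 3 such pairs. Because the members move together from library to library, the 44 genes are not 44 independent observations.

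**Figure D2:**
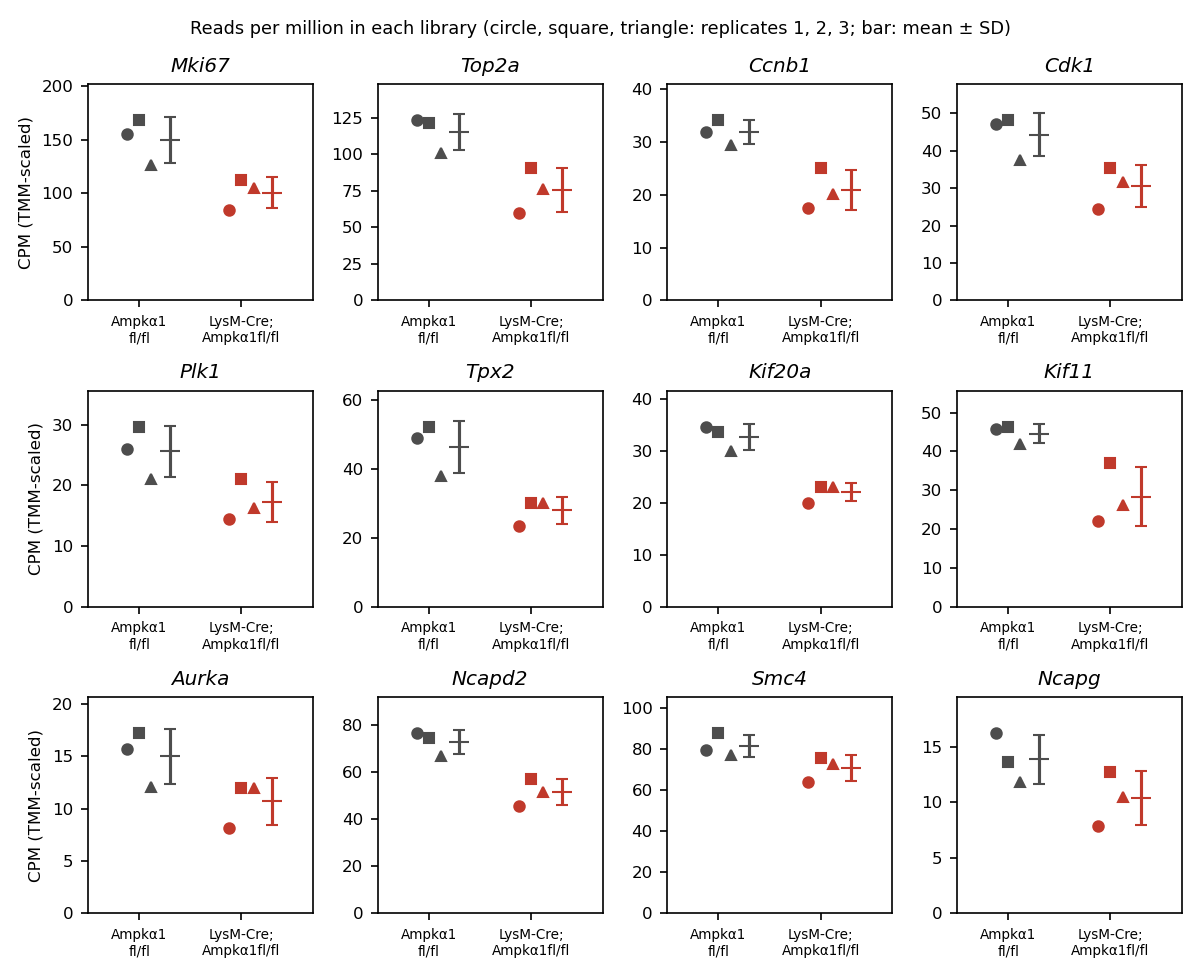
CPM (y axes, from 0) of 12 of the 44 genes in each of the 6 libraries, with circles, squares and triangles for replicates 1, 2 and 3 and the mean ± SD beside them. Control replicate 3 (grey triangle) is the lowest control in every panel, the groups overlap in *Ncapg*, and *Smc4* shows the smallest difference relative to its control level.

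The chromosome compaction genes were the most heavily read. *Mki67* encodes Ki-67, the classical proliferation marker, which coats mitotic chromosomes and keeps them apart (chromosome 7, 135689784 to 135716450, GRCm38.p6). It had 155, 168 and 126 CPM in controls and 84.5, 112 and 105 in *LysM-Cre; Ampkα1fl/fl* tendon, and the groups did not overlap (log2 fold change −0.57, SE 0.14, adjusted p = 0.129). *Top2a* encodes the topoisomerase that disentangles sister chromatids (chromosome 11, 98992947 to 99024199). Its levels were 123, 121 and 101 CPM in controls and 60.0, 90.3 and 75.9 in the other group, again without overlap (log2 fold change −0.61, SE 0.15, adjusted p = 0.133). DESeq2 passed both, with adjusted p of 0.00226 and 0.00243.

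The 6 genes of mitotic entry summed to 65.5% of control, and DESeq2 passed 5 of them, against 2.67% of the genes it tested. *Cdk1*, the kinase that drives entry, had 47.2, 48.1 and 37.6 CPM in controls and 24.5, 35.4 and 31.7 in *LysM-Cre; Ampkα1fl/fl* tendon (log2 fold change −0.54, SE 0.16, adjusted p = 0.18). Its mitotic partner *Ccnb1* (cyclin B1) had 32.0, 34.1 and 29.5 CPM against 17.5, 25.1 and 20.2 (−0.61, SE 0.14, adjusted p = 0.113). Neither gene overlapped between groups. *Cdca3*, whose product helps to remove the inhibitory kinase Wee1, had the smallest p of the 6, with 26.6, 30.5 and 22.7 CPM against 13.3, 18.6 and 16.8 (−0.71, SE 0.16, adjusted p = 0.103). *Ccna2* (cyclin A2, which acts in S phase and at mitotic entry) had the largest, with 69.4, 76.5 and 55.2 CPM against 34.1, 54.7 and 46.1 (−0.58, SE 0.19, adjusted p = 0.223), its highest *LysM-Cre; Ampkα1fl/fl* library just below its lowest control. *Ccnb2* lay between them at −0.68. *Cdc25c*, the phosphatase that activates Cdk1, had the lowest fold change of all members, −0.86, but also the lowest read numbers and the widest standard error (0.26), with 92, 126 and 75 reads against 51, 67 and 45, and DESeq2 did not pass it (adjusted p = 0.116).

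The spindle checkpoint and the APC/C summed to 67.6% of control over 6 genes, each without overlap. The checkpoint holds cells before anaphase until every chromosome is attached. *Bub1b* (BubR1), an inhibitor of the APC/C within it, had 30.1, 29.0 and 26.0 CPM in controls and 15.7, 21.6 and 20.4 in the other group (−0.56, SE 0.13, adjusted p = 0.121). *Cdc20*, the APC/C activator that the checkpoint holds back, had 35.3, 34.0 and 28.7 CPM against 17.7, 26.4 and 22.8 (−0.55, SE 0.16, adjusted p = 0.176). An inhibitor and its target therefore lay at nearly the same share of control. *Ube2c*, the ubiquitin-conjugating enzyme of the APC/C, had the largest p, with 27.7, 36.1 and 23.8 CPM against 17.9, 23.3 and 19.3 (−0.54, SE 0.17, adjusted p = 0.217). The checkpoint kinases *Ttk* and *Bub1* lay at −0.63 and −0.64, and *Espl1*, the separase that cuts cohesin at anaphase, at −0.55. DESeq2 passed *Bub1b* and *Cdc20* among the 6.

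The centromere and kinetochore genes summed to 67.6% of control. *Cenpa*, the histone variant that marks centromeres, had 27.6, 30.7 and 22.5 CPM in controls and 15.4, 17.1 and 19.9 in *LysM-Cre; Ampkα1fl/fl* tendon, without overlap (−0.62, SE 0.14, adjusted p = 0.115). *Ndc80*, part of the complex that grips microtubules, had 14.4, 15.8 and 10.4 CPM against 8.29, 10.8 and 9.57, where replicate 2 of the second group lay above control replicate 3 (−0.51, SE 0.18, adjusted p = 0.262). Its binding partner *Nuf2* lay at −0.60, and *Cenpe*, a kinetochore motor, and *Cenpf* both at −0.54.

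The chromosomal passenger complex, which corrects faulty attachments and later directs cytokinesis, summed to 65.2% of control, and none of its 4 genes overlapped between groups. *Incenp*, its scaffold, had 40.2, 42.1 and 34.0 CPM in controls and 22.8, 32.0 and 25.1 in the other group (−0.54, SE 0.14, adjusted p = 0.151). *Aurkb*, its kinase Aurora B, had 22.3, 28.7 and 19.1 CPM against 11.2, 18.3 and 14.5 (−0.68, SE 0.21, adjusted p = 0.212). *Birc5* (survivin) and *Cdca8* (borealin), the subunits that bring the complex to centromeres, lay at −0.62 and −0.69.

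The spindle assembly genes summed to 65.0% of control. *Tpx2*, which activates Aurora A on microtubules, had 48.9, 52.1 and 37.9 CPM in controls and 23.5, 30.1 and 30.2 in *LysM-Cre; Ampkα1fl/fl* tendon (−0.73, SE 0.15, adjusted p = 0.0871), and it had the smallest DESeq2 adjusted p of all members, 0.000407. Its partner kinase *Aurka* had 15.7, 17.2 and 12.1 CPM against 8.14, 12.0 and 12.0 (−0.49, SE 0.20, adjusted p = 0.319), so 2 libraries of the second group lay at the level of control replicate 3. *Plk1*, the Polo kinase, had 26.0, 29.6 and 21.1 CPM against 14.5, 21.0 and 16.3 (−0.56, SE 0.17, adjusted p = 0.201), with a similar near-contact. *Nusap1*, which bundles spindle microtubules, lay at −0.58 with overlapping groups.

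The 8 kinesins summed to 64.9% of control, and DESeq2 passed 7 of them, against 2.67% of the genes it tested. *Kif20a*, the motor that carries the passenger complex to the central spindle, had the smallest p of all 44 members, with 34.7, 33.7 and 30.0 CPM in controls and 20.1, 23.2 and 23.2 in the other group (−0.56, SE 0.09, adjusted p = 0.0512). Its distinction was narrow spread and not a larger difference. *Kif15*, a spindle motor that works beside *Kif11*, had the largest p of the 8, with 15.5, 16.3 and 11.2 CPM against 6.57, 12.3 and 9.08 and overlapping groups (−0.62, SE 0.25, adjusted p = 0.319). *Kif11* (Eg5), which pushes the spindle poles apart, lay at −0.65. The chromokinesins *Kif22* and *Kif4*, which move chromosome arms, lay at −0.50 and −0.66. The microtubule depolymerase *Kif2c* lay at −0.72, and the central spindle motors *Kif23* and *Kif20b* at −0.62 and −0.67. The table lists the *Kif11* transcript at 2 places with its reads divided equally, and these were summed.

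Condensin lay nearer to control than the other subgroups, at 76.0% of control over its 5 genes, with *Smc4* the member nearest to control. *Smc4* held 81.2 of the 243 CPM of the mean control sum, and the other 4 genes lay at −0.57 to −0.42. *Ncapd2*, a regulatory subunit of condensin I (chromosome 6, 125168007 to 125192100), had 76.4, 74.6 and 66.8 CPM in controls and 45.8, 56.9 and 51.5 in *LysM-Cre; Ampkα1fl/fl* tendon (−0.50, SE 0.09, adjusted p = 0.0732). *Ncapg*, another condensin I subunit, had 16.2, 13.6 and 11.8 CPM against 7.87, 12.7 and 10.5 with overlap, and was the member that missed an unadjusted p of 0.05 (−0.42, SE 0.20, adjusted p = 0.394). *Smc4*, an ATPase of the condensin ring (chromosome 3, 69004738 to 69034623), had 79.3, 87.4 and 77.0 CPM against 63.8, 75.6 and 72.6 (−0.20, SE 0.08, adjusted p = 0.327). The groups of *Smc4* did not overlap, but its fold change was the smallest of all members. Its ring partner *Smc2* lay at −0.50 with overlapping groups, and *Ncaph*, which closes the ring, at −0.57. Within each library, log2 *Smc4* exceeded the mean log2 CPM of the other 4 condensin genes by 1.13, 1.31 and 1.37 in controls and by 1.68, 1.42 and 1.64 in the other group, with no overlap, a comparison made after the values were seen.

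The 4 cytokinesis genes summed to 67.8% of control, each without overlap. *Racgap1*, the partner of *Kif23* in the centralspindlin complex, had 56.3, 61.5 and 43.1 CPM in controls and 31.0, 40.9 and 37.0 in the other group (−0.56, SE 0.15, adjusted p = 0.161). *Ect2*, the exchange factor that switches on RhoA at the cleavage furrow, had 22.4, 21.2 and 18.8 CPM against 10.7, 17.4 and 15.8 (−0.50, SE 0.18, adjusted p = 0.267). The microtubule bundler *Prc1* lay at −0.59 and the furrow scaffold *Anln* at −0.55.

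**Figure D3:**
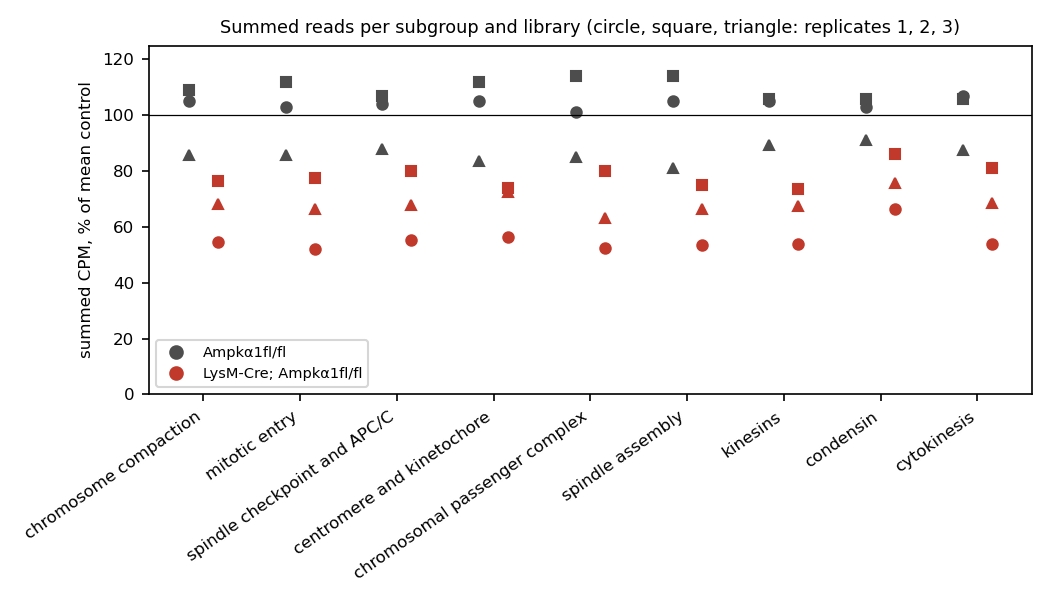
Summed CPM of each of the 9 role subgroups in each library, as a percentage of the control mean (y axis). The 3 *LysM-Cre; Ampkα1fl/fl* libraries lie below the 3 controls in each subgroup, and condensin lies nearest to control, at 76.0%.

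Per unit of transcript length (TPM, as deposited and summed over transcripts), the control levels of the members ran from 5.98 TPM (*Espl1*) to 95.1 TPM (*Ube2c*). After *Ube2c* (95.1 ± 18.8, SD, n = 3) came *Birc5* (66.2 ± 10.8), *Cenpa* (52.5 ± 4.67), *Ccnb2* (48.3 ± 4.24) and *Top2a* (46.8 ± 4.76). *Ube2c*, *Birc5* and *Cenpa* were spaced by more than an SD, while *Cenpa* and *Ccnb2*, and *Ccnb2* and *Top2a*, differed by less than an SD. At the low end, *Kif20b* (6.25 ± 0.65), *Kif15* (6.32 ± 1.15) and *Cenpf* (6.42 ± 0.864) could not be ordered. In *LysM-Cre; Ampkα1fl/fl* tendon *Ube2c* was again first, at 66.8 ± 11.2 TPM, and *Birc5* second, at 43.5 ± 11.9, with *Smc4* at 36.9 ± 4.12 in place of its 42.4 ± 2.20 in controls. As shares of the summed member TPM, 43 of the 44 genes moved by less than 0.5 percentage points between groups, and *Smc4* moved from 3.67% to 4.74%.

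The wider cell cycle was read through lists of genes outside the 44. Of 59 other mitotic genes, 57 were lower and 2 higher, 39 of them lower at an unadjusted p under 0.05, with a median log2 fold change of −0.47. The smallest p was that of *Ckap2*, a microtubule stabiliser (−0.70, adjusted p = 0.0914). *Mad1l1*, a checkpoint gene named after its value was seen, was the exception on the other side (0.27, adjusted p = 0.156). All 35 DNA replication genes were lower, with a median of −0.35, but 13 reached an unadjusted p under 0.05, and 25 did with the replicate number as a block. *Tk1*, thymidine kinase, had the smallest p among them, with 26.6, 32.8 and 25.5 CPM against 13.5, 20.2 and 17.0 (−0.75, SE 0.17, adjusted p = 0.107). Over all tested genes, 8.55% were lower and 5.97% higher at that unadjusted threshold, and 8.31% were lower with the block. The counts of these and the later lists are to be set beside those shares. No gene of these 2 lists passed an adjusted p of 0.05 in edgeR. DESeq2 passed 9 of the mitotic and 2 of the replication genes as lower, against 2.67% of the genes it tested.

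Among 16 regulators of late cell cycle transcription, 13 were lower and 3 higher, with a median of −0.18. At an unadjusted p under 0.05, 2 were lower (7 with the replicate block) and 1 higher, where 8.55% of all tested genes were lower and 5.97% higher. The lower genes were *Foxm1*, an activator of CHR promoters, with 41.7, 47.1 and 38.6 CPM in controls and 25.2, 35.4 and 29.7 in the other group (−0.50, SE 0.14, adjusted p = 0.161), and *E2f8*, an atypical E2F repressor (−0.67, adjusted p = 0.184). The higher gene was *Rbl2*, which encodes p130 of the DREAM repressor (0.22, adjusted p = 0.264). *E2f8* and *Rbl2* were named after their values were seen. Among 14 CDK inhibitors and mitotic brakes, 8 were lower and 6 higher with a median of −0.01, and 3 were lower and 1 higher at an unadjusted p under 0.05. *Cdkn2c*, the inhibitor p18 of the G1 kinases Cdk4 and Cdk6, fell from 35.3, 37.9 and 36.1 CPM to 22.6, 26.2 and 24.5 (−0.58, SE 0.08, adjusted p = 0.0301), which became an adjusted p of 0.0611 with the replicate block. *Cdkn1a*, the p53 target p21, lay at −0.01 (adjusted p = 0.989), and *Cdkn2b*, another G1 inhibitor, at 0.43 (SE 0.16, adjusted p = 0.275), both named after their values were seen. All 10 G1 cyclins and kinases were lower, with a median of −0.13, led by *Ccne1*, cyclin E1 (−0.58, adjusted p = 0.161).

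Structural relatives that also serve cells outside division were centred near 0. The 12 cohesin genes divided into 6 lower and 6 higher with a median of −0.03. At an unadjusted p under 0.05, 3 were lower (1 with the replicate block) and 0 higher, where 8.55% of all tested genes were lower. In 5 of the 12 the groups did not overlap in the lower direction, against 11.4% of all tested genes. The smallest p of the 12 belonged to *Esco2*, the acetyltransferase that locks cohesin on replicated DNA (−0.78, SE 0.16, adjusted p = 0.0923). The 19 transport kinesins and light chains, which carry cargo in cells whether or not they divide, had a median of 0.04, with 8 lower and 11 higher, none lower and 2 higher at an unadjusted p under 0.05. *Klc2*, a light chain, had the smallest p (0.33, adjusted p = 0.214). Whether these lists differ from the 44 members was not tested.

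**Figure D4:**
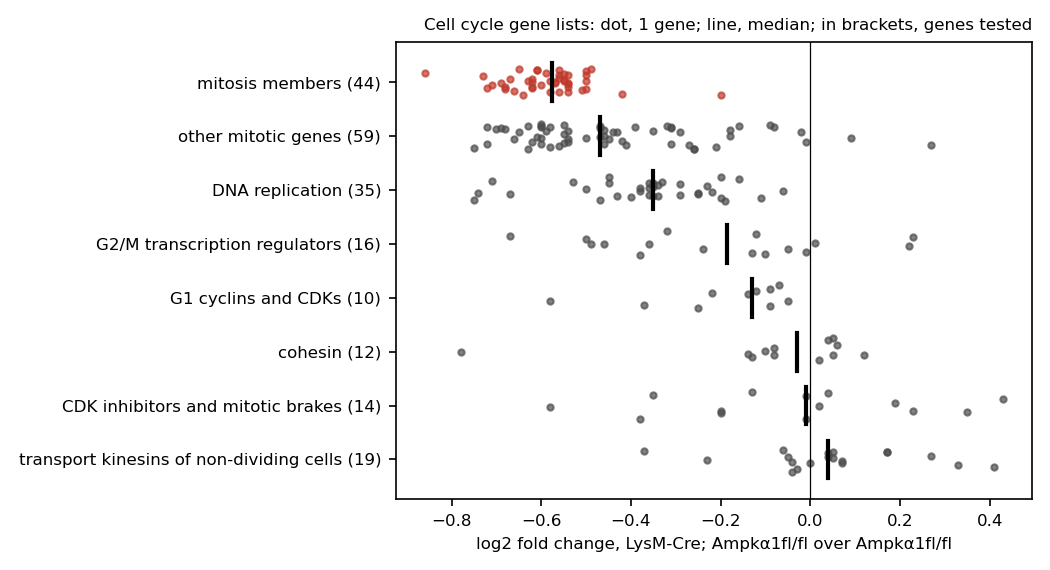
Log2 fold change (x axis, *LysM-Cre; Ampkα1fl/fl* over *Ampkα1fl/fl*) of every tested gene of the 44 mitotic members and of 7 other cell cycle lists, with a line at the median. The medians run from −0.57 for the members through −0.47 and −0.35 for other mitotic and DNA replication genes to 0.04 for the transport kinesins.

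Marker genes of several cell types also differed between the groups. Of 12 erythroid markers, 11 were in the table and 8 were tested. All 8 were lower, 6 of them past an adjusted p of 0.05 in edgeR, against 0.568% of all tested genes. With the replicate block 1 passed, against 0.252%. The sum of the 11 was 2000, 2275 and 2975 CPM in controls and 984.9, 677.7 and 768.6 in *LysM-Cre; Ampkα1fl/fl* tendon. *Hbb-bs*, an adult beta globin, fell by 1.55 on the log2 scale (adjusted p = 0.0191, and 0.0466 with the replicate block). *Hbb-bt* fell by 1.58 and *Hba-a1* by 1.61, with adjusted p of 0.0168 and 0.0309 that became 0.0524 and 0.0611 with the block. The globin genes are near-identical pairs between which reads can be divided. *Klf1*, a transcription factor of nucleated erythroid cells, had 3 to 5 reads in every library. Within each group the order of the libraries differed from that of the members. Control replicate 3 was the highest control for erythroid genes and the lowest for mitotic genes. In the *LysM-Cre; Ampkα1fl/fl* group, replicate 1 had the highest erythroid and the lowest mitotic sum, and replicate 2 the reverse. With the erythroid score as a covariate the 44 genes were still all lower, but the score did not overlap between groups, so its part in the result cannot be told apart from that of genotype.

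The macrophage markers summed to 1144, 1190 and 1148 CPM in controls and 926, 956.3 and 737.3 in the other group, without overlap. Of the 11, 8 were lower and 3 higher, and 6 were lower and 1 higher at an unadjusted p under 0.05 in edgeR. Its adjusted threshold was passed by 0, while DESeq2 passed 4 as lower, against 2.67% of the genes it tested. Those 4 were *Mrc1* (−0.83 in edgeR, adjusted p = 0.115), *Cd163* (−0.79, adjusted p = 0.227), *Csf1r* (−0.63, adjusted p = 0.0933) and the F4/80 gene *Adgre1* (−0.52, adjusted p = 0.0508). *C1qb*, the most abundant by TPM, lay at −0.18 (adjusted p = 0.349), and *Mertk* was the gene higher at that unadjusted p, at 0.21 (adjusted p = 0.162). The 6 endothelial markers were all lower and summed to 708.5, 714.1 and 663.2 CPM against 643.5, 588.6 and 662.2, with 2 of them lower at an unadjusted p under 0.05. *Pecam1*, the most abundant by TPM, lay at −0.07, *Tek* at −0.33 (adjusted p = 0.0664, passed by DESeq2) and *Tie1* at −0.25 (adjusted p = 0.203). The macrophage and endothelial genes other than *C1qb* and *Pecam1* were named after their values were seen. The part of these cells in the result was not tested. The tendon fibroblast markers summed to 134100, 128600 and 137300 CPM against 132300, 117200 and 135200, with overlap. Most of that sum was collagen, with control means of 49400 CPM for *Col1a1*, 43300 for *Col1a2* and 28400 for *Col3a1* against 133000 for the list. *Col1a2* lay at −0.01. Of the 11, 7 were lower and 4 higher, and 3 were lower and 0 higher at an unadjusted p under 0.05. DESeq2 passed 2 as lower, against 2.67% of the genes it tested. The 4 higher were *Scx* (0.22), *Tnmd* (0.18), *Thbs4* (0.13) and *Fmod* (0.09). Among the lower were *Tnc* (−0.15) and *Mkx* (−0.05), all of these named after their values were seen. The proteoglycan gene *Dcn* fell by 0.45 (adjusted p = 0.0301 in edgeR, and 0.0611 with the replicate block). *Col3a1*, also passed by DESeq2 and named after its value was seen, lay at −0.24 (adjusted p = 0.14 in edgeR).

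Skeletal muscle markers varied most between libraries, at 206.9, 627.4 and 3525 CPM in controls and 3879, 1136 and 10230 in the other group. All 12 were higher in the mean and 0 passed, *Acta1* lying at 1.78 (SE 1.14, adjusted p = 0.535). The order of the libraries was partly the reverse of that of the mitotic genes. Control replicate 3 had the most muscle RNA of the controls and the least mitotic RNA. In the other group replicate 2 had the least muscle RNA (1136 CPM) and the most mitotic RNA (1224 CPM). The reversal was not complete. Among controls replicate 1 had the least muscle RNA, but replicate 2 the most mitotic RNA. In the other group replicate 3 had the most muscle RNA, but replicate 1 the least mitotic RNA. With the muscle score as a covariate all 44 members were lower, 28 instead of 43 reached an unadjusted p under 0.05, and the median log2 fold change was −0.43. Neutrophil markers summed to at most 41.93 CPM in any library, and those of T and NK cells and of B cells to at most 10.64 and 4.152. Myoblast markers reached 39.73 CPM and keratinocyte markers 59.67 CPM, both in replicate 3 of the *LysM-Cre; Ampkα1fl/fl* group. In the cartilage list, *Acan* rose by 0.60 (adjusted p = 0.0298, and 0.0634 with the replicate block), while *Col2a1* was high in control replicate 2 alone. Every marker in the table had reads in at least some library.

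**Figure D5:**
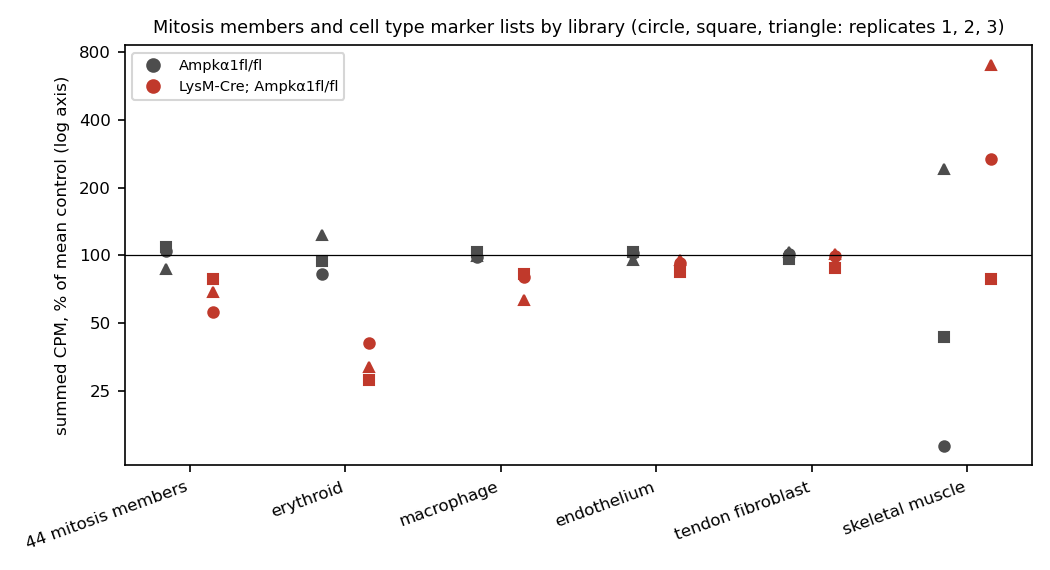
Summed CPM of the 44 mitotic genes and of 5 cell type marker lists in each library, as a percentage of the control mean (y axis, log scale), controls in grey and *LysM-Cre; Ampkα1fl/fl* in red. The sums of the 2 groups do not overlap for the mitotic, erythroid, macrophage and endothelial lists. The endothelial sums nearly touch, with the lowest control at 95.4% and the highest *LysM-Cre; Ampkα1fl/fl* library at 95.2%. Those of tendon fibroblast markers overlap, and those of skeletal muscle range from 14.2% to 704%.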

How the data were processed

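RNA of whole tendon from 6 mice (3 per group) had been sequenced on a BGISEQ platform. The deposited table holds, per RefSeq transcript and library, estimated counts of reads and TPM as the authors had made them. The build is GRCm38.p6 per the submitters' processing notes, and aligner and counting tool are not given in the sources used here. The 12 library columns and 8 average columns of other units were not used. Estimated counts of 65053 transcripts were summed to 18099 NCBI genes (symbols for 99.72%) and rounded. Groups were compared with edgeR 4.0.16 (R 4.3.3; TMM, filterByExpr, quasi-likelihood test) over all genes, with DESeq2 1.42.0 and limma 3.58.1 as alternatives, and the code was tested on simulated counts. Replicate numbers come from the labels. Deviations from the group mean correlated weakly between same-numbered libraries (r = 0.184, 0.118 and 0.31 across genes). Other pairings were not compared, so these values do not show that the number marks a true pairing. A fit with the number as block was made as an alternative. Named genes were those with the smallest and largest p per subgroup, 8 core mitotic genes, and called or leading genes of other lists. Members and lists were chosen with earlier results of these data known.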

Additional observations from a re-analysis of the deposited data

How the results depend on the processing

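All 44 genes were lower in *LysM-Cre; Ampkα1fl/fl* tendon under each of the 9 alternatives and without each library. The number past an adjusted p of 0.05 was 0 in edgeR, 27 in DESeq2, 1 (*Kif20a*) with at least 10 reads required in every library, and 0 to 5 when a library was left out, the 5 without replicate 2 of the *LysM-Cre; Ampkα1fl/fl* group. The number at an unadjusted p under 0.05 was 28 with the skeletal muscle score as covariate and 31 to 44 when a library was left out. The median log2 fold change was −2.89 with the erythroid score as covariate, a score that did not overlap between groups, and −0.71 to −0.46 when a library was left out. With the replicate block the smallest adjusted p was 0.0848, the median −0.58, and the call of no member changed. Of 396 values of single members under the alternatives, 368 kept their side of the threshold and 28 crossed to significance, and 0 were reversed. The members had 45 to 3078 reads per library and a median coefficient of variation of 11.9% among controls.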

Other observations

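The table divides reads among transcripts, and 31 of the 44 genes have more than 1 transcript. The transcript with the largest share of a gene's TPM was the same in both groups for 30 of the 31, the exception being *Cenpa*. Of 81 transcripts with a share of at least 5% in a group, 7 in 5 genes had shares that did not overlap between groups (8.64%), a share close to the 9.42% of 29945 such transcripts over all tested genes. In *Ncapd2*, picked after its values were seen, a predicted transcript took 13.5%, 9.2% and 11.4% of the gene's TPM in controls (198.5, 127.0 and 140.9 estimated reads) and was listed at 0 in all 3 *LysM-Cre; Ampkα1fl/fl* libraries, where the main curated transcript had 93.1%, 93.8% and 96.3%, against 78.1%, 83.6% and 81.9% in controls. These shares are estimates divided among overlapping transcripts, were looked at after the gene totals, and were not tested.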
